A study of Drosophila melanogaster with 24 samples.

Results

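The comparison set all brains taken after traumatic brain injury (TBI), whatever the time and sex label, against all uninjured brains. Its members are the libraries of the count table, 18 from injured flies and 6 from controls, which are all 24 libraries of the series. Every gene of the table was read, and the sex label entered the model as a covariate. The question was whether any transcript differed from control in injured brains as a whole, across 1, 2 and 4 hr.

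All flies were adult w1118, a white-eyed laboratory strain of Drosophila melanogaster, mated and 10 to 14 days old. Each library came from the brain of 1 fly. Injured flies received a single strike from a spring-mounted vial (the High-Impact Trauma device), which jolts the whole body rather than the head alone, so that injury to other tissues goes with it. Injured brains were collected 1, 2 or 4 hr later, and control flies were not struck, with 3 libraries for each time and sex label. Transcripts were read by QuantSeq 3′ mRNA-Seq, which takes 1 short read from near the 3′ end of a polyadenylated RNA.

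In flies, mechanical injury is followed within hours by expression of antimicrobial peptides, small secreted proteins that the Toll and Imd pathways switch on in fat body, blood cells and glia. Neurons and glia also draw on mitochondria, on the ribosome and on membrane sorting and protein turnover when tissue is damaged. These are the gene groups that the comparison was read for, with markers of the cell types that a dissected head tissue can hold.

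Depth varied widely in both arms. Total counts ran from 52388 to 1193051 (median 328392) in controls and from 46943 to 1769669 (median 564253) in injured libraries, a difference that did not pass an exact permutation test within sex labels (two-sided p = 0.184). Levels are given as CPM, counts scaled to library size with TMM factors, and 3 counts, the most that a library without a read allows, were worth 2.41 to 45.9 CPM in controls and 2.00 to 50.6 CPM in injured libraries. Such floors, and the counting intervals, hold no more than counting error. The RNA roX1, which belongs to the male dosage compensation complex, lay at 706 to 1012 CPM in male-labelled libraries and at 714 to 1246 CPM in 10 of 12 female-labelled ones, so the labels are used as names only. The other female-labelled libraries, 2 hr replicate 2 and 4 hr replicate 2, had 6.13 and 78.8 CPM of roX1, and the sum of their neuronal markers was 757 and 2528 CPM against 3390 to 6193 CPM in the other 22 libraries. These stand apart and belong to the injured arm. Male-labelled control replicate 2 (3423 CPM) and male-labelled 2 hr replicate 2 (3488 CPM) also had low neuronal sums for their groups. No library held the same counts as another in any of 276 pairs.

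Of 16995 genes counted, 5462 had enough counts to test, and none was called between injured and control libraries (0 higher and 0 lower, 0% of genes tested), where a call needs a Benjamini-Hochberg adjusted p below 0.05 from edgeR's quasi-likelihood test and a log2 fold change of injured over control (log2FC) beyond 1 either way. The smallest adjusted p by this edgeR test was 0.999. A nominal threshold, the same fold with an edgeR p below 0.05 before adjustment, was passed by 117 genes higher (2.14%) and 15 lower (0.275%) in injured libraries. Counts of list members past it, given below, are to be read against those shares. No gene passed the adjusted test, so what follows gives values and does not call a change. Each library is a separate brain, and the p-values measure the spread between these brains. Over all genes tested the median log2FC was 0.00, with 2746 of 5462 genes above 0. The common biological coefficient of variation, the spread of a gene between libraries beyond counting, was 0.608, and the median standard error of a log2FC was 0.47.

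Scaled by library size alone, which moved the median of all genes to -0.10, the counts were 93 higher and 26 lower, and by limma-voom with sample weights 63 and 32, so the balance of directions depended on the method. Genes in the higher group were poorly covered in controls. They had a median of 14 reads over the 6 controls, against 101 for all genes tested, and 45 of the 117 (38.5%) had no read in at least 3 controls, against 4.78% of all genes tested. Genes picked as higher after injury tend to have few control reads, so these values partly follow from the selection. Genes of like mean level were not compared. The count also rested on single controls. It was 305 higher and 13 lower without male-labelled control replicate 2, 60 and 8 without female-labelled control replicate 2, and 106 and 29 without both female-labelled libraries that stand apart. Without that pair and replicate 2 of the male-labelled control and 2 hr groups, all low in neuronal markers, it was 221 and 19. This set was chosen after seeing the data and kept female-labelled 1 hr replicate 1, whose neuronal sum was 3390 CPM. The adjusted test called 0 genes without these 4 libraries as well.

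The smallest p belonged to CG1847, a gene without a name of its own. It lay at 0 to 3.60 CPM in controls (median 0) and at 0 to 56.1 CPM in injured libraries (median 11.4). Of 6 controls 5 held no read, and 15 of 18 injured libraries lay above every control. The pooled reads were 2 in controls and 276 in injured libraries, a 27.8-fold ratio (95% counting interval 7.61 to 230), with an unadjusted p of 0.000766. Ns1, a GTPase of the nucleostemin family, nucleolar proteins tied to ribosome assembly, followed. Its level was 0 to 1.798 CPM in controls (median 0) and 0 to 39.6 CPM after injury (median 6.55), with 17 of 18 injured libraries above every control. It rested on 3 control reads against 194 in injured libraries (13.01-fold, 95% counting interval 4.38 to 63.6). The injured medians of both lay under the 3-count level of 3 or more of the controls, so that such a level was not detectable in each of them.

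Genes better covered than CG1847 and Ns1 shifted less. Even so, cv-d and cer had only 36 and 35 reads over the 6 controls, against a median of 101 for all genes tested. cv-d encodes a lipoprotein-family protein that modulates BMP signalling in the wing. It lay at 0 to 27.7 CPM in controls (median 20.2) and 21.9 to 103 CPM in injured libraries (median 41.1), and 17 of 18 injured libraries were above every control (log2FC 1.40, standard error 0.44, unadjusted p = 0.00379). Male-labelled control replicate 3 held no read of cv-d. There 3 counts were worth 35.5 CPM, and in female-labelled control replicate 3 they were worth 45.9 CPM. cer, an inhibitor of cathepsin-like proteases needed for long-term memory in flies, had 5.53 to 19.6 CPM in controls (median 14.5) and 12.7 to 48.3 CPM after injury (median 27.9). For cer 15 of 18 injured libraries were above every control (log2FC 1.15, standard error 0.37), and its median was 33.2 CPM at 1 hr, 27.7 CPM at 2 hr and 24.9 CPM at 4 hr. gammaSnap1, which acts in the recycling of membrane fusion complexes, had a median of 18.1 CPM in controls and 32.2 CPM after injury (log2FC 1.25, standard error 0.42). For gammaSnap1 10 of 18 injured libraries lay above every control, so its arms overlapped more than those of cv-d and cer.

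The other genes among the 12 of smallest p upward were CG8785, CG16826, lcs, CG3887, Sid, TSG101 and CG1354, with log2FCs of 0.87 (CG1354) to 3.68 (Sid). Sid, a nuclease induced by stress, and TSG101, a subunit of the ESCRT-I membrane-sorting complex, owed much of their mean to 1 library. Female-labelled 2 hr replicate 2 held 57.9% of the injured CPM of Sid and 54.8% of that of TSG101, at 245 and 286 CPM. Their medians were 0.90 and 1.21 CPM in controls and 6.89 and 8.03 CPM after injury.

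**Figure D1:**
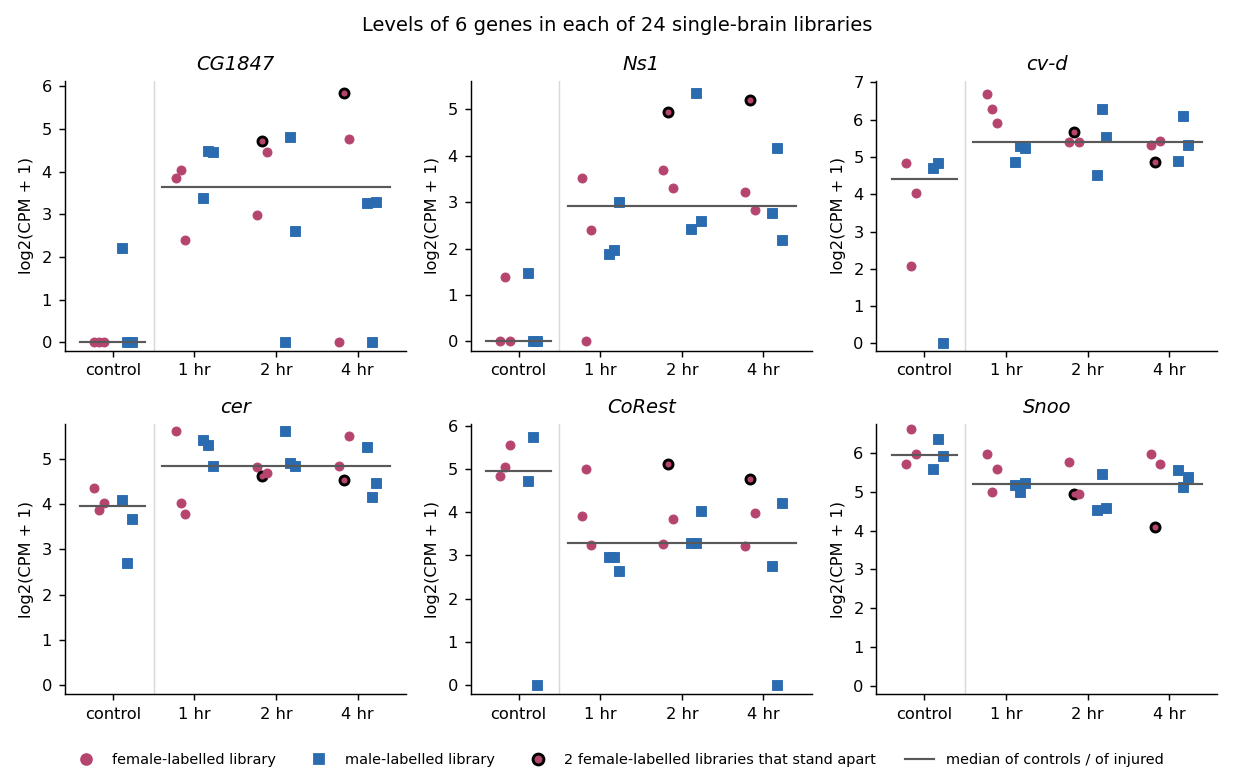
Levels of 6 genes, as log2(CPM + 1) on the vertical axis, in each of 24 libraries by time after injury. Points are libraries (circles female-labelled, squares male-labelled, black rims the female-labelled 2 hr and 4 hr libraries that stand apart), and lines are medians of the 6 controls and of the 18 injured libraries. Ns1 and cv-d had 17 of 18 injured libraries above every control, and Snoo had 14 of 18 below every control.

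Fewer genes passed the nominal threshold downward, and the 12 of smallest p had log2FCs of -0.52 to -2.04. CoRest, a corepressor that recruits histone-modifying enzymes to silence neuronal genes, had 0 to 52.6 CPM in controls (median 29.8) and 0 to 33.7 CPM after injury (median 8.73). It lay below the control median in 16 of 18 injured libraries but below every control in 0, since male-labelled control replicate 3 held no read of it (log2FC -1.34, standard error 0.44, unadjusted p = 0.00469). Snoo, a corepressor of Smad transcription factors, was the better separated of the pair. Its level was 46.7 to 96.5 CPM in controls (median 60.1) and 16.02 to 61.7 CPM after injury (median 35.9), with 14 of 18 injured libraries below every control (log2FC -0.79, standard error 0.27). The log2FC of Snoo was -0.74 in female-labelled and -0.82 in male-labelled libraries.

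CG8736 had 200 to 517 CPM in controls (median 295) and 73.6 to 300 CPM after injury (median 202), and CG11412 had 70.9 to 138 CPM (median 89.1) and 0 to 88.8 CPM (median 53.2). CG8910, one of the genes that neuronal activity is known to induce in flies, had 7.85 to 33.2 CPM in controls (median 19.5) and 0 to 17.6 CPM after injury (median 4.72). It had 59 reads over the controls and 52 over the injured libraries (0.177-fold, 95% counting interval 0.120 to 0.262), and 14 of 18 injured libraries lay below every control. CG8910 overlaps other transcripts in the annotation, and Snoo, cv-d, cer, gammaSnap1, TSG101, alt and Flo2 overlap a gene on the other strand. The sources used here do not give the strand setting of the counting, so reads of those partners cannot be told apart. The remaining genes of the 12 were Flo2 (flotillin, a membrane scaffold), CG3797, alt, mRpS35 of the mitochondrial ribosome, the phospholipase GIIIspla2, the RNA-binding protein Rbp2 and the vesicle protein Vps13B, with log2FCs from -0.52 (Rbp2) to -1.75 (Vps13B).

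**Figure D2:**
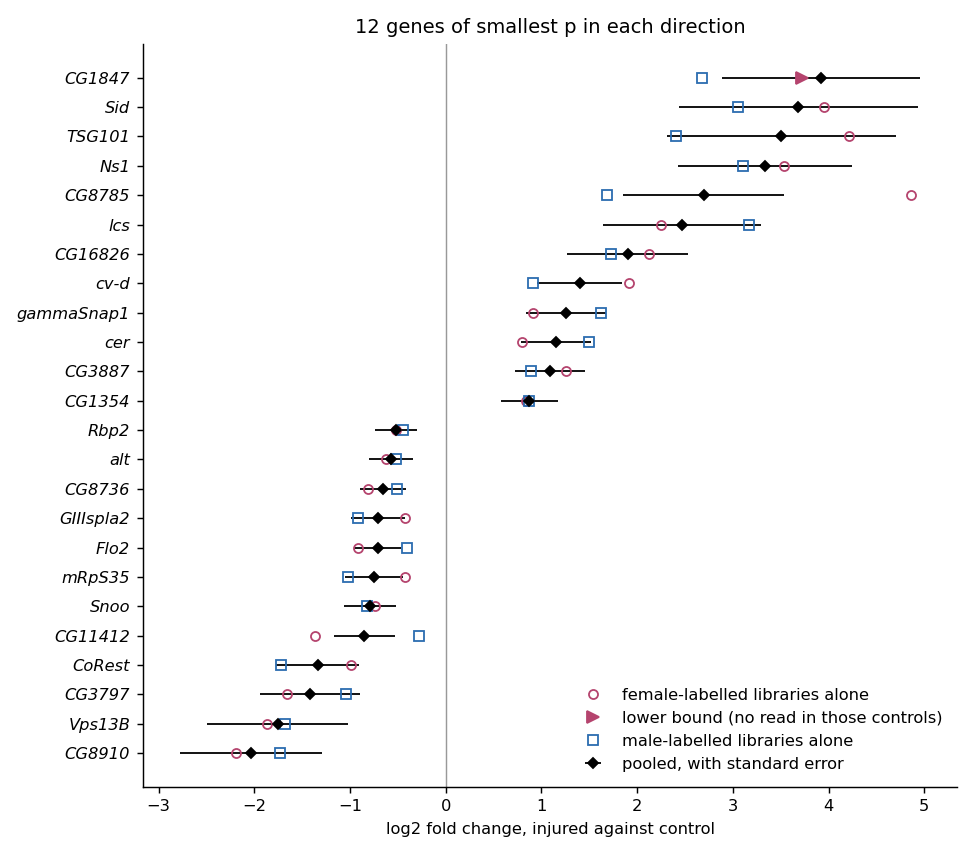
log2 fold change of injured over control for the 12 genes of smallest p in each direction, on the horizontal axis. Diamonds with bars are the pooled value and its standard error, open circles and squares the values in female-labelled and male-labelled libraries alone, and the filled arrow a lower bound for CG1847, which had no read in female-labelled controls. Pooled values ran from -2.04 (CG8910) to 3.92 (CG1847).

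No gene had all 18 injured libraries on one side of all 6 controls (0%). At least 15 of 18 injured libraries lay above every control for 9 genes (0.165%), and below every control for 0 (0%). A library cannot lie below a control without a read, as with CoRest, so genes with such a control could not count downward. The upward and downward counts are therefore not alike. Beside CG1847, Ns1, cv-d and cer the 9 genes above held CG2453, Usp14, CG5168, CG16772 and m-cup, which were named after their values were seen. Usp14, a deubiquitinase of the proteasome, lay at 5.63 to 15.7 CPM in controls and 7.61 to 176 CPM after injury (median 27.1), with 16 of 18 injured libraries above every control (log2FC 1.54). CG16772 had 10.5 to 62.8 CPM in controls and 12.7 to 4744 CPM after injury (median 104), a wide spread within the injured arm.

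Antimicrobial and other immune peptides had the highest median of the 34 gene lists. All 18 tested members had a log2FC above 0, with a median of 1.53 against 0.00 for all genes tested, and 5 of 18 were higher by the nominal threshold, against the 2.14% of all genes. The 5 were AttC, AttB, CecA1, Drsl5 and DptA, and AttC, an attacin that acts on Gram-negative bacteria, had the smallest p of the list. AttC lay at 2.41 to 15.3 CPM in controls (median 8.42) and at 0 to 8045 CPM after injury (median 33.1), and 14 of 18 injured libraries were above every control. A single library, female-labelled 2 hr replicate 2, held 89.2% of its injured CPM. The log2FC of AttC was 4.69 with that library and 2.84 without it.

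The size of the shift in the immune peptides moved with that library. Their summed level was 3307 to 7731 CPM in controls (median 5342) and 3893 to 15403 CPM in the 16 injured libraries other than the pair that stands apart (median 6472). It was 208563 CPM in female-labelled 2 hr replicate 2 and 14295 CPM in female-labelled 4 hr replicate 2. Without both, all 18 members were still above 0, at a median log2FC of 0.83, with 5 higher by the nominal threshold. Of the 18 injured libraries 8 lay above every control in the summed level and 14 above the control median. Within labels the median log2FC was 3.43 in female-labelled libraries (16 of 18 higher, against 5.58% of all genes) and 0.40 in male-labelled ones (0 of 18, against 1.1%). The female-labelled values include 2 hr replicate 2, and a median of that label without it was not taken.

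Mtk, an antifungal peptide, had 61.1 to 214 CPM in controls (median 121) and 67.9 to 11079 CPM after injury (median 194), with log2FC 1.72 (0.72 without female-labelled 2 hr replicate 2). Drs, the drosomycin of the Toll response, had a median of 411 CPM in controls and 454 CPM after injury, and CecC, a cecropin, had 57.6 and 90.4 CPM. AttA and AttB, and CecA1 and CecA2, are near-identical copies whose reads could be split either way. The Toll and Imd pathway lists showed smaller shifts than the peptides. Their median log2FCs were 0.22 (Toll, 11 of 16 above 0) and 0.26 (Imd, 8 of 14), with 0 genes of either past the nominal threshold. Rel, the NF-kappaB factor of the Imd pathway, had a median of 103 CPM in controls and 104 CPM after injury, and imd itself 17.4 and 16.4 CPM.

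**Figure D3:**
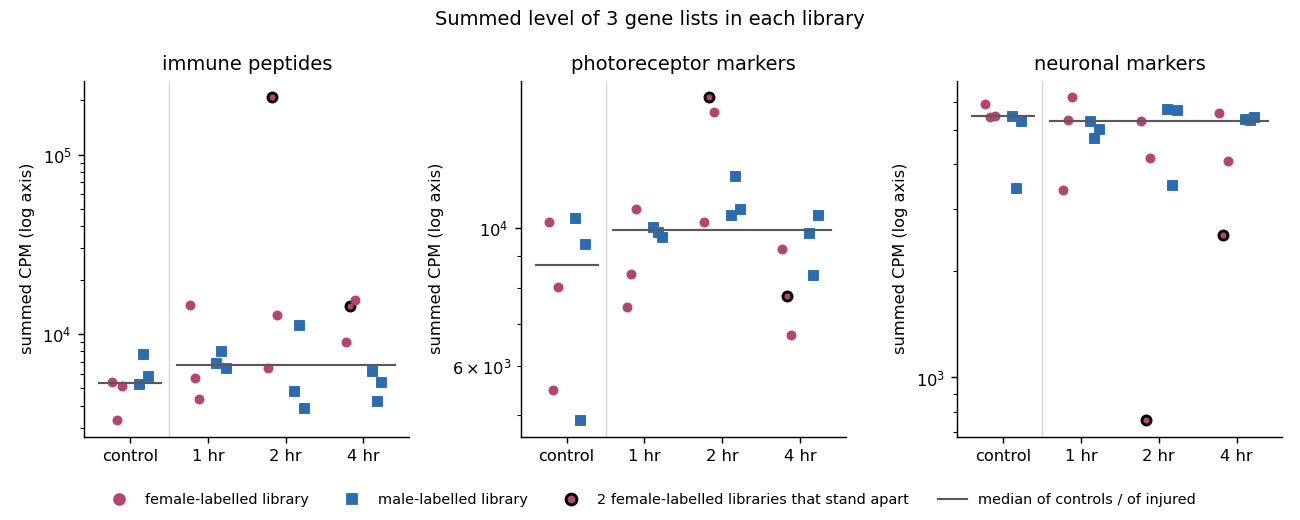
Summed CPM of immune peptides, photoreceptor markers and neuronal markers, on log vertical axes, in each of 24 libraries by time after injury. Circles are female-labelled and squares male-labelled libraries, black rims mark the female-labelled 2 hr and 4 hr libraries that stand apart, and lines are medians of controls and of injured libraries. The 208563 CPM of immune peptides in female-labelled 2 hr replicate 2 compare with 3893 to 15403 CPM in the other injured libraries outside that pair.

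Photoreceptor markers, genes of the rhodopsins and of the light response in the eye, were above 0 in 14 of 17 tested members, with a median log2FC of 0.51. Of the 17, 2 were higher by the nominal threshold, chp and Rh4, against 2.14% of all genes tested. chp, the photoreceptor adhesion protein chaoptin, lay at 4.02 to 78.5 CPM in controls (median 22.9) and 29.7 to 324 CPM after injury (median 66.5). All 18 injured libraries were above the control median of chp and 7 above every control (log2FC 1.67, standard error 0.58, unadjusted p = 0.00748). Rh4, an ultraviolet-sensitive rhodopsin, had 0 to 30.6 CPM in controls (median 19.5) and 0 to 180 CPM after injury (median 33.9), with 12 of 18 above every control. Arr1, an arrestin that ends the light response, had a log2FC of 0.98 and the light-gated channel trp 1.00, each with a control minimum in female-labelled control replicate 2.

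The size of the list's median moved with 2 controls. The summed level of the markers was 4906 CPM in male-labelled control replicate 2 and 5497 CPM in female-labelled control replicate 2, below all 18 injured libraries, and 8026 to 10366 CPM in the other controls. Injured libraries had 6717 to 16211 CPM (median 9923), of which 7 lay above every control and 13 above the control median of 8716 CPM. Without the pair of female-labelled libraries that stand apart the median log2FC was 0.61, with 15 of 17 members above 0. Leaving out controls was chosen after seeing the data. The median log2FC of the list was 0.30 without male-labelled control replicate 2, 0.32 without female-labelled control replicate 2, and 0.12 without both, where all genes tested had a median of 0.09 and 11 of 17 members were above 0. chp and Rh4 stayed above 1 without both, at log2FCs of 1.12 and 1.25, although neither then passed the nominal threshold. In a whole brain more cells of a type and more RNA per cell cannot be told apart.

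**Figure D4:**
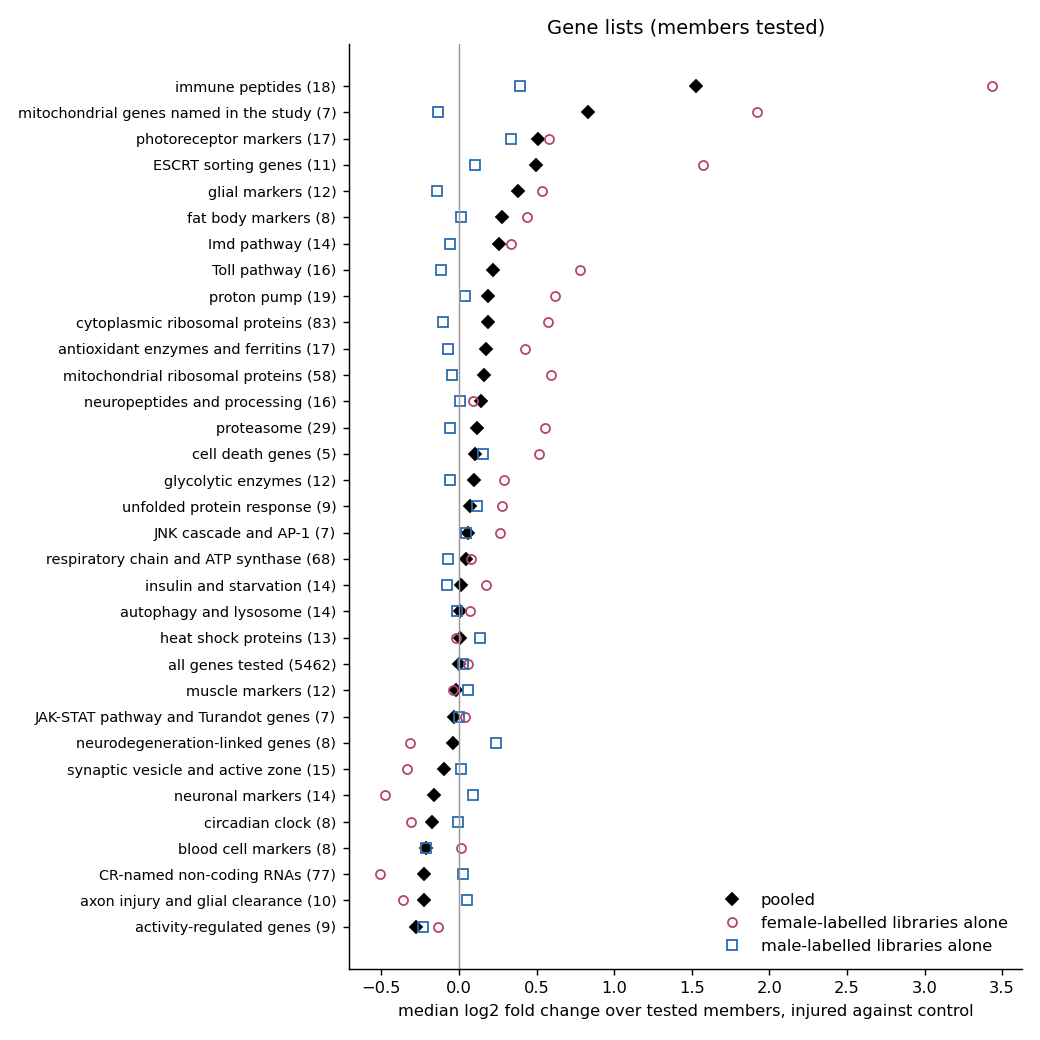
Median log2 fold change of injured over control across the tested members of each gene list (number tested in brackets). Diamonds are the pooled medians, circles and squares those in female-labelled and male-labelled libraries alone, with no error shown because members are read in the same libraries. Immune peptides had 1.53 pooled, 3.43 in female-labelled and 0.40 in male-labelled libraries, with female-labelled 2 hr replicate 2 included.

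Of 12 mitochondrial genes that the study singled out from these samples, which is not independent of their direction here, 7 were tested. All 7 were above 0, with a median log2FC of 0.83. Among those not tested was vimar, which the study reported as decreased in females and which is given below. Of the 7, colt alone passed the nominal threshold, and none did without the female-labelled pair that stands apart, where all 7 were still above 0 at a median of 0.76 and colt was at 0.90. colt, the carnitine carrier of the inner membrane, lay at 12.6 to 36.0 CPM in controls (median 21.0) and 21.9 to 173 CPM after injury (median 42.0), with 12 of 18 injured libraries above every control and all 18 above the control median (log2FC 1.11, standard error 0.40). SdhA, a subunit of succinate dehydrogenase, had a log2FC of 1.32 (standard error 0.66) and Miro, which tethers mitochondria to transport motors, 0.85 (standard error 0.75), both with overlapping arms. The median of the 7 was 1.92 in female-labelled and -0.13 in male-labelled libraries. In the pooled fit, of all single libraries left out, male-labelled control replicate 2 gave the highest log2FC of each of the 7. Without it mRpS21 went from 0.83 to 3.24, aralar1 from 0.20 to 0.77 and colt from 1.11 to 1.39. A male-labelled median without that library was not taken. The respiratory chain and ATP synthase as a whole had a median of 0.04, with 39 of 68 members above 0 and none past the nominal threshold.

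Genes of the mitochondrial ribosome had a median log2FC of 0.16, with 40 of 58 above 0. Of the 58, 4 were higher by the nominal threshold, against 2.14% of all genes tested. Among them mRpL11 had 0 to 23.6 CPM in controls (median 4.56) and 0 to 75.7 CPM after injury (median 17.5), and mRpL9 had 0 to 12.6 CPM (median 1.21) and 6.13 to 37.1 CPM (median 11.6). mRpS35 went the other way, with a median of 42.7 CPM in controls and 29.7 CPM after injury (log2FC -0.75). Without the female-labelled pair that stands apart the median log2FC of the list was 0.09, with 36 of 58 above 0 and 3 higher. Proteins of the cytoplasmic ribosome, which are read deeply, were above 0 in 75 of 83 members, at a median of only 0.19. Without the female-labelled pair that stands apart 70 of 83 were above 0, at a median of 0.08. None passed the nominal threshold. RpL26 lay at 603 to 1287 CPM in controls (median 915) and 687 to 3448 CPM after injury (median 1086). Its highest levels were in that pair, 3448 CPM in 2 hr replicate 2 and 3053 CPM in 4 hr replicate 2. The median of the list was 0.58 in female-labelled and -0.10 in male-labelled libraries, so that its pooled direction was that of the female-labelled ones.

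ESCRT genes, whose products sort membrane proteins for the lysosome, had a median log2FC of 0.49 (9 of 11 above 0). TSG101 and CHMP2B, 2 of 11, were higher by the nominal threshold, against 2.14% of all genes tested. CHMP2B, of the ESCRT-III complex, lay at 0 to 27.7 CPM in controls (median 3.60) and 4.24 to 144 CPM after injury (median 25.5). The female-labelled controls held 0 reads of it against 388 in their injured libraries, at least 26.8-fold higher when the group is given 3 reads in all. The male-labelled controls lay at 7.19 to 27.7 CPM and their injured libraries at 16.9 to 35.7 CPM, which overlap. The proteasome list had a median of 0.11, the proton pump 0.19, and autophagy and lysosome genes 0.01. Of their members 1 of 29, 1 of 19 and 0 of 14 were higher, against the same 2.14%. cathD, a lysosomal protease, had a median of 72.5 CPM in controls and 114.7 CPM after injury, with all 18 injured libraries above the control median.

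Markers of neurons were above 0 in 4 of 14 members, with a median log2FC of -0.16, and -0.02 without the female-labelled pair. Syt1, the calcium sensor of synaptic release, had a median of 597 CPM in controls and 521 CPM after injury, and brp, of the active zone, 552 and 455 CPM. Glial markers had a median of 0.38 (8 of 12 above 0), which was 0.54 in female-labelled and -0.14 in male-labelled libraries. repo, the transcription factor that defines glia, had a median of 9.46 CPM in controls and 13.03 CPM after injury. Fat body markers (0.28, 4 of 8 above 0), blood cell markers (-0.21, 2 of 8) and muscle markers (-0.02, 5 of 12) had 0 members past the nominal threshold. The yolk protein gene Yp1 of the fat body lay at 285 to 3463 CPM in controls and 714 to 22007 CPM after injury, so Yp1 was read in every library and varied within both arms. The blood cell sum was below every control in 9 of 18 injured libraries and above every control in 4.

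Medians of the stress and clock lists lay between -0.22 and 0.17, against 0.00 for all genes tested. Heat shock proteins had a median log2FC of 0.01 (7 of 13 above 0) and the unfolded protein response 0.07 (6 of 9). Antioxidant enzymes had 0.17 (15 of 17), glycolytic enzymes 0.10 (8 of 12) and insulin and starvation genes 0.02 (8 of 14). JNK and AP-1 genes had 0.06 (4 of 7), JAK-STAT and Turandot genes -0.03 (3 of 7) and cell death genes 0.11 (3 of 5). Axon injury and glial clearance genes had -0.22 (2 of 10), clock genes -0.18 (2 of 8) and synaptic vesicle genes -0.10 (4 of 15). None of these lists had a member past the nominal threshold. Neuropeptide genes had 0.14, and neurodegeneration-linked genes -0.04, where Psn, the catalytic presenilin of gamma-secretase, was the one member higher (median 11.4 CPM in controls and 21.7 CPM after injury). tau and Appl, the fly counterparts of 2 proteins of Alzheimer's disease, had log2FCs of -0.00 and -0.07. Activity-regulated genes had a median of -0.28 (2 of 9 above 0), with CG14186 higher and CG8910 lower. Non-coding RNAs named CR had -0.22 (20 of 77 above 0), with 1 of 77 higher and 1 lower.

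Within each sex label the counts differed. In female-labelled libraries, 9 injured against 3 controls, 305 genes were higher (5.58%) and 6 lower (0.11%) by the nominal threshold, and in male-labelled libraries 60 were higher (1.1%) and 46 lower (0.842%). Adjusted, edgeR called 0 genes in each (0%), with smallest adjusted p values of 0.854 and 0.999. The higher genes shared 4 members, CG1847, Ns1, CG16826 and chp, which are 1.31% of the female-labelled and 6.67% of the male-labelled genes. That 6.67% is near the 5.58% of all genes that were higher in female-labelled libraries, so the overlap is no result about these genes. CG31075, Jra and Bgb, 6.52% of the male-labelled lower genes, were higher in female-labelled libraries, again near 5.58%, and the lower genes, with only 6 in female-labelled libraries, shared 0. Across the 5462 genes the log2FC of the labels, which share no library, had a Pearson correlation of -0.03 and a Spearman correlation of -0.11. Genes are not independent replicates, and this is a description of these libraries.

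Within the female-labelled set 28 of the 305 higher genes (9.18%) had no read in any of its controls, against 32 of all 5462 genes tested. In the male-labelled set 4 of the 60 higher genes (6.67%) had none in its controls, against 5 of 5462. The spread between libraries was 0.757 in female-labelled and 0.377 in male-labelled libraries, as common coefficient of variation. Single libraries moved these counts too. In female-labelled libraries 140 genes were higher without control replicate 2 and 185 without control replicate 3, and in male-labelled libraries 353 were higher and 200 lower without control replicate 1. The 46 lower genes of the male-labelled set became 12 without control replicate 2, 91 without control replicate 3 and 146 without 2 hr replicate 2. The 6 lower genes of the female-labelled set became 15 without 1 hr replicate 3, 14 without 2 hr replicate 2, 12 without 4 hr replicate 2, 3 without 1 hr replicate 1, and 2 without 1 hr replicate 2 or 4 hr replicate 3.

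**Figure D5:**
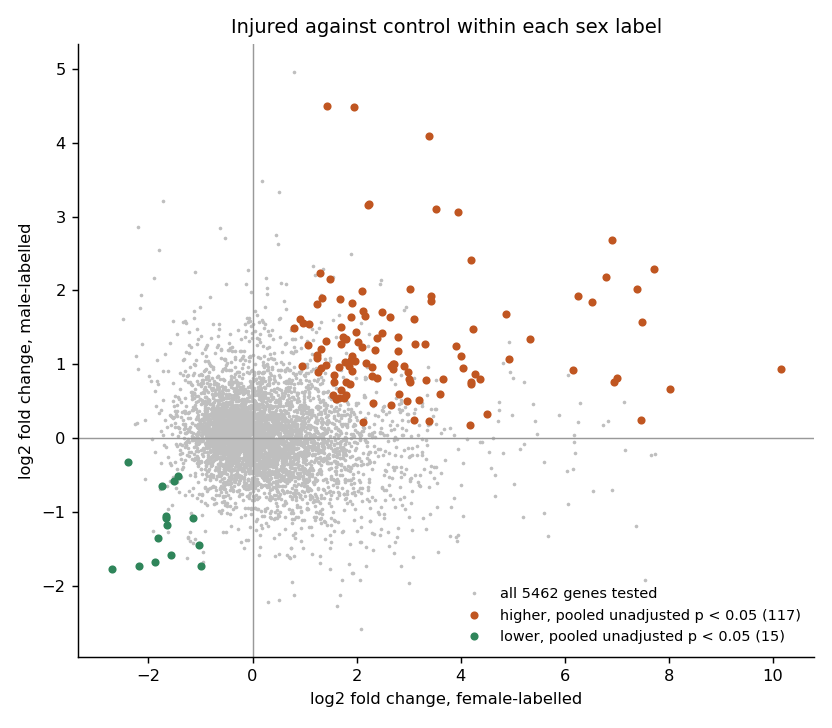
log2 fold change of injured over control in female-labelled libraries (horizontal axis) against that in male-labelled libraries (vertical axis), 1 point for each of 5462 genes. Coloured points are the 117 higher and 15 lower genes past the pooled nominal threshold. Across all genes the Pearson correlation was -0.03.

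A test of the difference itself, the interaction of injury with sex label, called 0 genes (0%, smallest adjusted p 0.259 from edgeR). The nominal threshold was passed by 365 genes (6.68%), which became 241 without female-labelled control replicate 2 and 100 without male-labelled control replicate 2. CHMP2B, above, and Jra were among them. Jra, the Jun subunit of AP-1, lay at 0 to 10.5 CPM in female-labelled controls (median 0) and 0 to 151 CPM in their injured libraries (median 22.4). In male-labelled libraries it lay at 0 to 69.2 CPM in controls (median 5.39) and 0 to 14.3 CPM after injury (median 5.27). The medians of the male-labelled arms were close, and its male-labelled log2FC of -1.95 became 0.70 without control replicate 2, the library at 69.2 CPM, which was left out after seeing the data. Of the 12 glial markers 9 were above 0 in female-labelled and 5 in male-labelled libraries, and 4 (wrapper, alrm, repo and e) passed the nominal threshold of the interaction, with none called (smallest adjusted p 0.727 from edgeR). wrapper and alrm had median levels of 7.85 and 3.93 CPM in female-labelled controls and 44.8 and 30.8 CPM after injury, against 23.6 and 13.8 CPM and 17.5 and 8.72 CPM in male-labelled libraries.

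Among the 18 injured libraries alone, no gene differed between 1, 2 and 4 hr by the adjusted test (0 of 5400 tested, 0%, smallest adjusted p 1.00 from edgeR). An edgeR p below 0.05 before adjustment was found for 95 (1.76%). That count was 57 without the female-labelled pair that stands apart, 32 without female-labelled 2 hr replicate 2 alone, 52 without male-labelled 2 hr replicate 2, 61 without female-labelled 4 hr replicate 1, 63 without female-labelled 1 hr replicate 2 and 143 without female-labelled 2 hr replicate 1. CG16826 had medians of 21.4, 61.5 and 18.3 CPM at 1, 2 and 4 hr (unadjusted p = 0.029), and chp had 74.6, 137 and 49.0 CPM. AttC had 33.1, 33.6 and 31.0 CPM and colt 44.0, 47.8 and 37.9 CPM. In these 4 genes, given as examples, the median was highest at 2 hr, though by little in AttC. That of cer, above, was highest at 1 hr instead. None of these genes passed the adjusted test of times.

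The study names 11 genes that did not pass the filter on low counts, which asks for reads in several libraries. DptB, a diptericin, had 1 read over the 6 controls and 3160 over the injured libraries, of which female-labelled 2 hr replicate 2 stood at 3032 CPM and the next library at 124 CPM. AttA had 0 reads in controls and 1387 in injured libraries, at least 93.0-fold higher when the controls together are given 3 reads, with 1355 CPM in that library and 17.5 CPM in the next. CecB (4 and 1906 reads) and Def (10 and 531 reads) had their highest level there too, at 1848 and 411 CPM. mop, an endosomal phosphatase homologue, had 1 and 216 reads (43.4-fold, 95% counting interval 7.72 to 1724) and its highest level, 66.1 CPM, in female-labelled 4 hr replicate 2. Nup98-96 had 5 and 81 reads, Surf1 1 and 49, mRpS25 1 and 148, mRpL43 4 and 58 and mRpL55 6 and 153. vimar was the one with a pooled ratio under 1, at 19 and 49 reads (0.519-fold, 95% counting interval 0.300 to 0.933).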

How the data were processed

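RNA from single fly brains was sequenced as 50 bp QuantSeq 3′ FWD reads. Per the labels, the authors' processing used CASAVA 1.8.2, STAR 2.4, the dm3 genome and edgeR 3.22.3. The deposited table holds raw counts per gene and library, which the study describes as counted with HTSeq. Neither the version of HTSeq nor how it treated strand is given in the sources used here. Tables of the authors' own comparisons (log2 fold changes, average levels, likelihood ratio scores, p-values and adjusted p-values) were not used.

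Groups came from the labels, and every column was matched to a library. Counts were tested in R 4.3.3 with edgeR 4.0.16 (TMM scaling, filterByExpr by the 8 groups of time and sex label, quasi-likelihood test, sex label and injury as terms), and p-values were adjusted over all 5462 genes tested by Benjamini-Hochberg. Calls needed an adjusted p below 0.05 and a log2 fold change beyond 1 either way. Levels are TMM-scaled CPM. The same model was fitted within each sex label, with an interaction, and for time among injured libraries. Total counts per library ran from 46943 to 1769669, so 3 counts were worth 2.00 to 50.6 CPM, and intervals and floors cover counting error only.

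The genes named were the 12 of smallest p in each direction, with members of the 34 gene lists and genes of the study. Members and lists were chosen with earlier results of these data known. Symbols were matched to RefSeq for names and neighbours (16925 of 16995), and no coordinates were taken from it because its build is not dm3. Alternatives were other scaling, filters, DESeq2 1.42.0, limma 3.58.1, other designs, a replicate block, equal depth and leaving out libraries or times. The fits were tested on simulated data. Figures were drawn with matplotlib 3.10.9 in Python 3.11.15.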

Additional observations from a re-analysis of the deposited data

Results flagged for a closer look

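Within the controls, the female-labelled injured and the male-labelled injured libraries, 32 quantities were searched for a single library far from the rest of its group, 96 groups in all. Of these 22 held one, and 11 of the 22 were male-labelled 2 hr replicate 2. The limit on the gap is one that about 1 in 20 groups of normally spread, independent values would pass. These quantities include low counts and genes chosen for a small p, and they share libraries. The 22 of 96 can therefore not be read as an excess. Values are CPM, with the nearest other library of the group beside each.

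In the marker sums, male-labelled 2 hr replicate 2 was lowest of the male-labelled injured libraries in neuronal (3488 against 4735), fat body (5287 against 7619) and blood cell markers (756 against 997), and highest in muscle markers (3588 against 2653). Male-labelled control replicate 2 was lowest of the controls in neuronal markers (3423 against 5306). Female-labelled 2 hr replicate 2 was highest in immune peptides (208563 against 15403).

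Among the genes of smallest p, male-labelled 2 hr replicate 2 was highest of its group in Ns1 (39.6 against 16.9), CG16826 (87.9 against 36.7), gammaSnap1 (51.5 against 34.7), lcs (33.3 against 15.8), Sid (31.7 against 14.9), TSG101 (43.6 against 13.5) and mRpS35 (49.9 against 33.8). Female-labelled 2 hr replicate 2 was highest in CG3887 (83.8 against 50.7), Sid (245 against 23.9) and TSG101 (286 against 43.7), and female-labelled 4 hr replicate 2 in CG1847 (56.1 against 26.2). Male-labelled 4 hr replicate 3 was highest in CG8910 (17.6 against 7.13). Among controls, male-labelled replicate 1 was highest in CG1847 (3.60 against 0), female-labelled replicate 3 in Sid (15.3 against 3.93), male-labelled replicate 2 in mRpS35 (102 against 53.1) and male-labelled replicate 3 in Rbp2 (284 against 153).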

How the results depend on the processing

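The adjusted test called 0 genes in injured against control libraries under all 41 alternatives, and 0 within either sex label, for the interaction and for times under those run on them. Counts at an unadjusted p with |log2FC| over 1 (117 higher, 15 lower) moved more. They were 578 and 142 with no filter (10345 genes), 44 and 3 with at least 10 reads in 12 libraries (3834 genes), 16 and 0 at equal depth (1252 genes), and 63 and 32 by limma-voom with sample weights. Higher genes numbered 185 with no sex label in the design and 221 without the 4 libraries named above as low in neuronal markers. Lower genes numbered 26 with library size alone, 24 by edgeR's likelihood ratio test and 29 without the female-labelled pair that stands apart. DESeq2 gave 175 and 18. Leaving out 1 library gave 60 to 305 higher and 8 to 21 lower.

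With the replicate number as a block there were 126 higher and 25 lower genes and 0 called. Of 18 same-numbered control and injured pairs 7 deviated together with r over 0.1 (range -0.151 to 0.532). All 3 pairs did so in 2 of 6 injured groups, male-labelled 1 hr and 2 hr. The meaning of the numbers is not stated, so they were not taken to pair the libraries. The female-labelled pair that stands apart, male-labelled 2 hr replicate 2 and the controls lowest in photoreceptor markers all bear the number 2. Female-labelled 1 hr replicate 1, also low in neuronal markers (3390 CPM), does not. Whether same-numbered libraries share a batch was not tested.

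In female-labelled libraries (305 higher, 6 lower), library size alone gave 192 and 27, and 32 were lower without the pair. Leaving out 1 library gave 140 to 430 higher and 2 to 15 lower. In male-labelled libraries (60 and 46) it gave 47 to 353 and 12 to 200. The interaction (365) ran from 100 to 538, and times (95) from 32 to 143, with 57 without the pair. Leaving out libraries and the 4-library set for these unadjusted counts was chosen after seeing the data.

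Of 76 genes followed, 7 changed sign in 31 of 3030 recomputed values. By limma-voom Rel was -0.089, imd -0.12, repo -0.32 and tau 0.042. Without the 2 hr libraries aralar1 was -0.12 and Appl 0.034, and without the pair Appl was 0.11 and tau 0.17. The log2FC of tau was 0.000414 by DESeq2, 0.0020 by the likelihood ratio test, 0.042 with no sex label, 0.015 with a mean for each of the 8 groups, 0.21 at equal depth, 0.034 without the 4 hr libraries and 0.084 without the 4 libraries. Leaving out 1 library gave -0.028 to 1.30 for prel, -0.12 to 0.77 for aralar1, -0.27 to 0.066 for Appl and -0.15 to 0.12 for tau. The causes were not tested. Depth limits low genes most, since 3 counts were worth up to 50.6 CPM.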
